A study of Mus musculus with 12 samples.

Results

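The genes described here are 8 negative regulators of cytokine signalling through Janus kinases (JAK) and STAT transcription factors. They are Socs1, Socs2, Socs3, Cish, Usp18, Ptpn1, Ptpn2 and Pias1, which were taken by gene name from the 29428 genes of the deposited table, where each had 1 row. They were measured by poly(A) RNA-seq in STHdhQ7/Q7 (STHdhQ7) and STHdhQ111/Q111 (STHdhQ111) cells, immortalized mouse striatal lines whose huntingtin alleles encode 7 and 111 glutamine repeats, respectively, and which the labels call normal and HD. There were 3 libraries of each of 4 groups. Nontreated STHdhQ7 cells (Q7-C) and nontreated STHdhQ111 cells (Q111-C) were the controls, and cells of each line given 100 ng/mL murine IFNγ plus 5 μg/mL LPS for 24 h were the treated groups (Q7-T and Q111-T). All cells were grown at 33 °C in DMEM with serum and used within 20 passages. Each genotype is represented by a single cell line, so that genotype and line cannot be told apart.

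When IFNγ or a related cytokine binds its receptor, JAK kinases phosphorylate the receptor and STAT proteins, and phosphorylated STATs enter the nucleus and switch on target genes. Several of these targets encode brakes. SOCS1, SOCS3, SOCS2 and CISH carry an SH2 domain and a SOCS box, with which they bind phosphorylated receptors or JAKs and recruit a ubiquitin ligase, and USP18 removes ISG15 from proteins and blocks type I interferon signalling at the receptor subunit IFNAR2. PTPN1 (PTP1B) and PTPN2 (TC-PTP) are phosphatases that dephosphorylate JAKs or STATs, and PIAS1 binds activated STAT proteins in the nucleus.

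Each library held from 57505990 to 96417834 estimated counts. All 8 genes passed the filter of at least 0.5 TPM in at least 3 libraries, which left 16127 genes for testing. Cish passed it only through treated libraries. In log2(TPM + 0.5) over all genes tested, 11 of the 12 libraries lay nearest to one of their own group. The exception, Q7-T replicate 2, lay nearest to Q7-C replicate 1. The labelled striatal neuronal identity could be checked on few markers. Of 4 neuronal genes in the table, Snap25 and Syt1, which encode synaptic proteins, were at or under 0.025 TPM in every library. The other two were present, with group means from 3.91 TPM (Q111-C) to 74.6 TPM (Q7-T) for Tubb3, a neuronal beta-tubulin, and from 2.13 TPM (Q7-T) to 7.93 TPM (Q7-C) for Map2, a dendritic microtubule protein. Of 6 markers of medium spiny neurons, the main striatal neurons, 4 were in the table, and Ppp1r1b was at or under 1.31 TPM and Gad1, Gad2 and Adora2a at or under 0.432 TPM in every library. The summed level of 6 astrocyte markers ranged from 1.05 to 1.98 TPM over the STHdhQ7 libraries, from 9.01 to 11.1 TPM in Q111-C and from 4.16 to 5.24 TPM in Q111-T, and was mostly Slc1a3 in STHdhQ111 cells. The 5 mesenchymal genes examined (Col1a1, Col1a2, Vim, Fn1 and Acta2) summed to between 1713 and 5072 TPM. Of 8 macrophage or microglia markers 5 were in the table, and Ptprc, Itgam and Adgre1 were at or near 0 in all libraries. Their sum was mostly Cd68 and ranged from 5.93 to 8.32 TPM in Q7-C, from 8.81 to 15.3 TPM in Q7-T, from 14.5 to 16.8 TPM in Q111-C and from 40.8 to 58.0 TPM in Q111-T. As these are bulk RNA samples, fewer expressing cells and less RNA per cell cannot be told apart.

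The SOCS genes are known STAT targets, and the 250 bases before the RefSeq start of Socs1 and Socs3 are shown because both transcripts rose together after treatment. The sequences are from RefSeq on GRCm38.p6, whose promoter windows (250 bases before to 50 bases after a start) matched 5 of the 8 genes. They read 5′ to 3′ on the minus strand of chr16:10785537-10785786 for Socs1 and of chr11:117969367-117969616 for Socs3. Capitals mark an interferon-stimulated response element, searched as GAAA, any 2 bases and GAAA, or a gamma-activated sequence (GAS) searched as TTCNNNGAA, both on both strands. For Cish, 30 bases of the plus strand at chr9:107296654-107296683, from 5 bases before the RefSeq start, are shown because they hold a pair of GAS matches. The RefSeq start is that of the deposited row for Socs1, but it lies inside the deposited row for the others, by 681 bases for Socs3, 633 for Cish, 270 for Ptpn1 and 7045 for Pias1, so that the printed stretches of Socs3 and Cish lie within the genes as measured.
Socs1: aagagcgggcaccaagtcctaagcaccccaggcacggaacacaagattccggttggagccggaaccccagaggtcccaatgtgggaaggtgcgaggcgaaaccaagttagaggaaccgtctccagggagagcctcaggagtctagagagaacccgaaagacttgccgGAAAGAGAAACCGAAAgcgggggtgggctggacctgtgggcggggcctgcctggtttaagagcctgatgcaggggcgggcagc
Socs3: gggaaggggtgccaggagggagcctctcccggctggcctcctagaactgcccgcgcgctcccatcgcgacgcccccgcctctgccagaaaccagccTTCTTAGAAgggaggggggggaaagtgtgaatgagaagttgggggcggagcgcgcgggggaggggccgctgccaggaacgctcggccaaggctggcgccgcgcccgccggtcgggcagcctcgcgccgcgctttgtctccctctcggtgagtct
Cish: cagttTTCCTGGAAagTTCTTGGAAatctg

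In the windows of 300 bases, Socs1 held 2 overlapping matches to the response element, from -83 to -74 and from -77 to -68 relative to the RefSeq start, which is counted as 0. Socs3 held 1 GAS match, from -154 to -146, and Cish held 2, from 0 to 8 and from 11 to 19. The windows of Ptpn1 and Pias1 held neither. Of 32851 RefSeq promoter windows of this length, 8.3% held a GAS match and 3.44% a response element match. A match describes the letters and not a binding site.

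In response to IFNγ/LPS treatment, Socs1 and Socs3 rose in both lines. Socs1 (ENSMUSG00000038037) lies on the minus strand of chromosome 16 of GRCm38, from 10782240 to 10785536. It encodes the main feedback inhibitor of the IFNγ receptor. Its TPM, a level scaled for transcript length and library total, was 2.95, 1.31 and 1.54 in Q7-C, against 14.0, 34.4 and 20.2 in Q7-T. In STHdhQ111 cells it was 2.13, 3.47 and 2.48 TPM in Q111-C and 25.6, 34.3 and 17.5 TPM in Q111-T. Every treated library of both lines lay above every nontreated library. The highest Q7-T value was that of replicate 2. By the quasi-likelihood test of edgeR, with p-values adjusted (Benjamini-Hochberg) over all genes tested, the log2 fold change was 3.83 (standard error, SE, 0.616, adjusted p = 0.00258) in Q7-T vs. Q7-C. This size depended on single libraries, as it was 3.03 without Q7-T replicate 2 and 4.51 without Q7-C replicate 1, and it passed in both cases. It was 3.40 (SE 0.603, adjusted p = 0.00205) in Q111-T vs. Q111-C. These tests measure the spread between libraries that the study describes as biological replicates.

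Socs3 (ENSMUSG00000053113, chromosome 11, 117966079 to 117970047, minus strand) encodes the SOCS protein best known for inhibiting receptors that share gp130, such as the IL-6 receptor. It had 7.93, 9.17 and 6.74 TPM in Q7-C and 50.4, 22.7 and 48.8 TPM in Q7-T. In STHdhQ111 cells it had 18.2, 18.4 and 20.2 TPM in Q111-C and 64.3, 52.5 and 52.1 TPM in Q111-T. The groups of each line did not overlap, and the low Q7-T library was replicate 2, the library in which Socs1 was highest. The log2 fold change was 2.45 (SE 0.204, adjusted p = 1.25e-05, edgeR) in STHdhQ7 cells and 1.67 (SE 0.198, adjusted p = 1.13e-04, edgeR) in STHdhQ111 cells. Nontreated STHdhQ111 cells started from a higher level. In Q111-C vs. Q7-C Socs3 was higher by 0.91 on the log2 scale (SE 0.195, adjusted p = 0.00524, edgeR), and all 3 Q111-C libraries exceeded all 3 Q7-C libraries. After treatment the lines differed by 0.13 on the log2 scale, with a 95% interval from -0.29 to 0.55 (adjusted p = 0.615, edgeR).

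**Figure D1:**
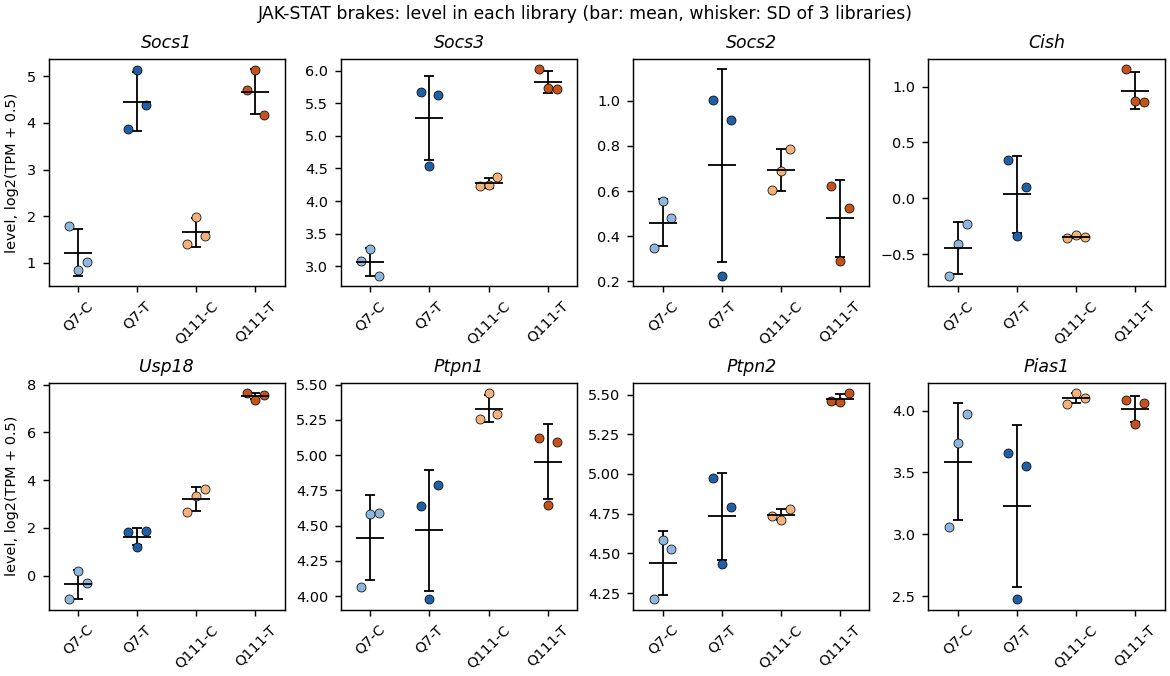
Level of the 8 genes in each of the 12 libraries as log2(TPM + 0.5), by group, with 1 point per library, a bar at the mean and whiskers of 1 SD (n = 3). Socs1 and Socs3 are higher in both treated groups, while Usp18 stays at or under 3.14 TPM in all STHdhQ7 libraries and lies between 165.5 and 198.4 TPM in the Q111-T libraries.

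Cish, the founding member of the SOCS family and a known target of STAT5, had the lowest mean of the 8 genes in Q7-C, Q7-T and Q111-C. Cish (ENSMUSG00000032578) lies on the plus strand of chromosome 9 from 107296026 to 107302784 and overlaps Gm17040 and Gm17041 on the opposite strand. It had 0.119, 0.252 and 0.356 TPM in Q7-C and 0.769, 0.293 and 0.571 TPM in Q7-T, groups that overlapped. In STHdhQ111 cells it had 0.285, 0.295 and 0.287 TPM in Q111-C and 1.72, 1.33 and 1.32 TPM in Q111-T, which did not overlap. These levels rested on as few as 30 estimated counts in Q7-C and on 236 to 400 per library in Q111-T. The log2 fold change was 2.41 in STHdhQ111 cells (SE 0.33, adjusted p = 3.20e-04, edgeR). In STHdhQ7 cells it was 1.33 (SE 0.321, adjusted p = 0.0344, edgeR), but adjusted p was 0.05 or above in 16 of 23 alternative settings, among them 10 of the 12 in which 1 library was left out. In Q111-T vs. Q7-T it was 1.08 (SE 0.315, adjusted p = 0.0189, edgeR), and without Q7-T replicate 3 or Q111-T replicate 1 the adjusted p was 0.0507 or 0.0599.

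Socs2, which restrains growth hormone receptor signalling, stayed between 0.669 and 1.503 TPM in all 12 libraries and did not pass the test in either treatment comparison. Socs2 (ENSMUSG00000020027) lies on the minus strand of chromosome 10, from 95385362 to 95417180. It had 0.772, 0.968 and 0.895 TPM in Q7-C and 1.503, 0.669 and 1.38 TPM in Q7-T. It had 1.02, 1.11 and 1.23 TPM in Q111-C and 1.04, 0.724 and 0.939 TPM in Q111-T. Replicate 2 was the lowest library of both treated groups. The log2 fold change was 0.56 in STHdhQ7 cells (95% interval 0.11 to 1.00, adjusted p = 0.182, edgeR) and -0.23 in STHdhQ111 cells (95% interval -0.67 to 0.22, adjusted p = 0.53, edgeR). DESeq2 called the increase in STHdhQ7 cells (0.56, adjusted p = 0.0154). In Q111-T vs. Q7-T, Socs2 alone among the 8 genes passed the test as lower, with a log2 fold change of -0.75 (SE 0.202, adjusted p = 0.0127, edgeR), although the TPM of these groups overlapped. That call was lost with limma on log2(TPM + 0.5), where adjusted p was 0.421.

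Usp18 was the gene of the 8 with the largest fitted difference between the lines, before and after treatment. Usp18 (ENSMUSG00000030107) lies on the plus strand of chromosome 6 from 121245906 to 121270917 and overlaps Gm44148 on the opposite strand. It had 0, 0.654 and 0.297 TPM in Q7-C and 3.03, 1.82 and 3.14 TPM in Q7-T. In STHdhQ111 cells it had 5.82, 9.48 and 12.02 TPM in Q111-C and 198.4, 165.5 and 187.6 TPM in Q111-T. Thus the lowest nontreated STHdhQ111 library exceeded the highest treated STHdhQ7 library. The estimated counts were 0, 68 and 38 in Q7-C, 274, 198 and 445 in Q7-T, 508, 923 and 1281 in Q111-C, and 19982, 15246 and 14529 in Q111-T. A count of 0 allows up to 12 estimated counts, taken as 3 read pairs. The line difference in log2 fold change was 4.58 in Q111-C vs. Q7-C (SE 0.697, adjusted p = 5.50e-04, edgeR) and 5.72 in Q111-T vs. Q7-T (SE 0.704, adjusted p = 9.00e-05, edgeR). The first of these was 5.59 without Q7-C replicate 2, which had the most counts of its group.

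Treatment raised Usp18 in both lines. The log2 fold change was 3.30 in STHdhQ7 cells (SE 0.671, adjusted p = 0.0128, edgeR) and 4.43 in STHdhQ111 cells (SE 0.66, adjusted p = 6.07e-04, edgeR). In STHdhQ7 cells the log2 fold change was 4.26 without Q7-C replicate 2, and adjusted p rose to 0.066 without Q7-C replicate 3 and to 0.30 when the fit held the 6 STHdhQ7 libraries alone. The difference between these responses was 1.14 on the log2 scale, with a 95% interval from -0.77 to 3.05 (adjusted p = 0.516, edgeR). Without Q7-C replicate 1, the library with 0 counts, the difference was 1.67 with an adjusted p of 0.0436 (edgeR), and without Q7-C replicate 2, the nontreated STHdhQ7 library with the most, it was 0.15 with an adjusted p of 0.97.

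The genes whose pattern across the 12 libraries was most like that of Usp18 were Ifit3b (Pearson r = 0.996 of log2(TPM + 0.5)), Oas1a (r = 0.993) and Samd9l (r = 0.991). All are interferon-induced antiviral genes. These correlations describe libraries that share 4 groups and their depth. Ifit3b and Oas1a belong to families of similar genes, so that their read assignment is uncertain. Ifit3b averaged 2.33 TPM in nontreated and 13.4 in treated STHdhQ7 cells, and 36.0 and 664 TPM in STHdhQ111 cells. Isg15, the ubiquitin-like substrate of USP18, averaged 2.50 and 61.8 TPM in nontreated and treated STHdhQ7 cells, and 48.0 and 708 TPM in STHdhQ111 cells. It rose in both lines, by a log2 fold change of 4.78 in STHdhQ7 cells (adjusted p = 2.07e-07, edgeR) and 3.98 in STHdhQ111 cells (adjusted p = 2.73e-07, edgeR). In contrast with Usp18, the Isg15 levels of the Q7-T libraries overlapped with those of the Q111-C libraries. Irf9, which encodes the DNA-binding partner of STAT2, averaged 2.77, 16.2, 18.6 and 70.5 TPM in the same order of groups.

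**Figure D2:**
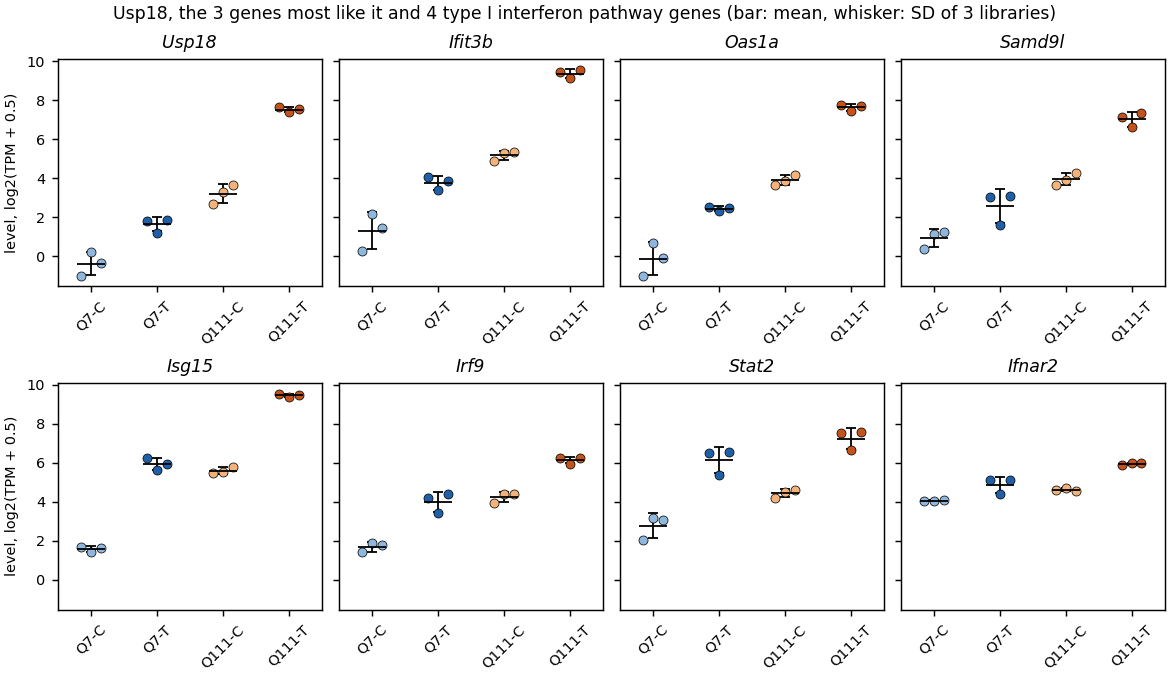
Level as log2(TPM + 0.5) of Usp18, of the 3 genes with the most similar pattern (Ifit3b, Oas1a, Samd9l) and of Isg15, Irf9, Stat2 and Ifnar2 in each library, on a shared axis, with the mean and SD of 3 libraries. Usp18 and its 3 nearest genes are lower in Q7-T than in Q111-C, whereas Isg15 overlaps between these groups.

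Usp18 was also compared with its neighbours on chromosome 6. Of the genes that reach to within 300 kb of either end of Usp18, 3 others were tested, and all lie on the side of lower coordinates. Tuba8, an alpha-tubulin gene, starts 35.2 kb from the start of Usp18 and had a log2 fold change of 3.62 in STHdhQ7 cells (adjusted p = 0.0442, edgeR) and 3.14 in STHdhQ111 cells (adjusted p = 0.0282, edgeR). The nontreated libraries of Tuba8 alone did not meet the filter, so that its rise with treatment was favoured by it. It had 0.316, 0.448 and 0.122 TPM in Q7-C and 1.74, 5.71 and 0.597 TPM in Q7-T, unequal libraries of which replicate 2 was the highest. In STHdhQ111 cells its mean went from 0.972 ± 0.506 to 8.125 ± 1.08 TPM (SD, n = 3 each). Pex26, which encodes a peroxisomal membrane protein, did not pass in either treatment comparison and was higher in STHdhQ111 cells, by a log2 fold change of 0.86 in Q111-C vs. Q7-C (adjusted p = 0.0428, edgeR). Mical3 passed in none of the 4 pairwise comparisons. The same contrast gave 4.58 for Usp18, 1.37 for Tuba8 and 0.26 for Mical3.

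The phosphatase genes and Pias1 had fitted treatment changes under 2-fold in both lines. Ptpn2 (ENSMUSG00000024539, chromosome 18, 67665511 to 67724588, minus strand) encodes a phosphatase of JAKs and nuclear STATs. It had 18.0, 23.5 and 22.6 TPM in Q7-C, 31.0, 21.1 and 27.2 TPM in Q7-T, 26.2, 25.7 and 27.02 TPM in Q111-C, and 43.4, 43.3 and 45.1 TPM in Q111-T. All Q111-T libraries lay above all other libraries, and the Q7 groups overlapped. Its log2 fold change was 0.85 in STHdhQ111 cells (SE 0.132, adjusted p = 8.34e-04, edgeR). In STHdhQ7 cells it was 0.50 (95% interval 0.21 to 0.79), and adjusted p was 0.0522 with edgeR and 0.00183 with DESeq2. In Q111-T vs. Q7-T it was 0.34 (adjusted p = 0.063, edgeR), and it passed there without Q7-T replicate 2 (0.43, adjusted p = 0.0176, edgeR), with DESeq2 (0.34, adjusted p = 0.0214) and with limma on log2(TPM + 0.5) (0.74, adjusted p = 0.00509).

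Ptpn1 (ENSMUSG00000027540, chromosome 2, 167932057 to 167979385, plus strand) encodes an endoplasmic reticulum phosphatase of JAK2 and TYK2. It had 16.2, 23.5 and 23.6 TPM in Q7-C, 24.4, 15.2 and 27.1 TPM in Q7-T, 37.8, 43.0 and 38.7 TPM in Q111-C, and 34.3, 24.5 and 33.6 TPM in Q111-T. The highest levels were those of nontreated STHdhQ111 cells, whose 3 libraries lay above all others. Before treatment, STHdhQ111 cells were higher by 0.61 on the log2 scale (SE 0.122, adjusted p = 0.00325, edgeR). It was 0.25 in Q7-T vs. Q7-C (95% interval -0.01 to 0.52, adjusted p = 0.359, edgeR) and -0.28 in Q111-T vs. Q111-C (95% interval -0.55 to -0.01, adjusted p = 0.145, edgeR). After treatment, the lines differed by 0.08 on the log2 scale (95% interval -0.18 to 0.35, edgeR).

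Pias1 (ENSMUSG00000032405, chromosome 9, 62878368 to 62987924, minus strand) passed edgeR's test in none of the comparisons, and DESeq2 called it higher in Q111-T vs. Q7-T (0.40, adjusted p = 0.0398). It had 7.82, 12.8 and 15.2 TPM in Q7-C, 12.1, 5.05 and 11.2 TPM in Q7-T, 16.2, 17.1 and 16.7 TPM in Q111-C, and 16.5, 14.4 and 16.2 TPM in Q111-T. The lowest values of both STHdhQ7 groups were those of Q7-C replicate 1 and Q7-T replicate 2, and the same 2 libraries were the lowest of their groups for Ptpn1 and Ptpn2. The log2 fold change with treatment was -0.18 in STHdhQ7 cells (95% interval -0.54 to 0.18) and 0.01 in STHdhQ111 cells (95% interval -0.35 to 0.37), both from edgeR. With both of these libraries left out, Pias1 was higher in Q111-T vs. Q7-T, with a log2 fold change of 0.28 (adjusted p = 0.0257, edgeR), and Ptpn2 with 0.46 (adjusted p = 0.00422, edgeR).

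Counted over the 8 genes, 4 rose and 0 fell in Q7-T vs. Q7-C at an adjusted p under 0.05, where 3.61% of all genes tested rose and 1.74% fell. The 4 genes were Socs1, Socs3, Cish and Usp18, and each rose at least 2-fold (2.93% of all genes). In Q111-T vs. Q111-C, 5 rose and 0 fell, against 11.3% and 7.33% of all genes. Ptpn2 joined the same 4 genes, which again rose at least 2-fold (8.28% of all genes). Cish entered the test only through treated libraries, so that its rise was favoured by the filter. Without it, 3 of 7 genes rose in STHdhQ7 cells and 4 of 7 in STHdhQ111 cells. At an unadjusted p under 0.05, 0 of the 8 genes were lower in STHdhQ7 cells (6.83% of all genes) and 1, Ptpn1, was lower in STHdhQ111 cells (13.2% of all genes), where DESeq2 called that decrease (adjusted p = 0.0339), as it did for 10.4% of all genes. The median log2 fold change of the 8 genes in STHdhQ7 and STHdhQ111 cells was 0.94 and 1.26, respectively, and that of the 7 without Cish was 0.56 and 0.85, beside 0.003 and -0.005 over all genes. The libraries of a line did not overlap, with the treated libraries higher, for 3 of the 8 genes in STHdhQ7 cells (5.55% of all genes) and for 5 in STHdhQ111 cells (19.8% of all genes). Ptpn1 was the gene with lower and not overlapping treated libraries in STHdhQ111 cells (29.8% of all genes).

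Between the lines, 3 of the 8 genes were higher and 0 lower in Q111-C vs. Q7-C, against 11.1% and 11.6% of all genes tested. These were Usp18, Socs3 and Ptpn1, of which Usp18 alone reached 2-fold (7.62% of all genes). At an unadjusted p under 0.05, 0 were lower (17.2% of all genes), and limma and DESeq2 also called 0 lower. Over all genes, limma on log2(TPM + 0.5) called 3615, of which 2481 were higher, and DESeq2 called 4592, of which 2303 were higher. In Q111-T vs. Q7-T, Usp18 and Cish were higher (19.8% of all genes) and Socs2 lower (18.7%). Without Cish, whose passing of the filter its Q111-T libraries alone secured, 1 of 7 genes was higher and 1 lower. In either direction, 22.7% of all genes differed before treatment and 38.4% after it. TPM and edgeR's TMM scaling placed the lines differently. On the log2(TPM + 0.5) scale the median of all genes tested was 0.274 in Q111-C vs. Q7-C and 0.341 in Q111-T vs. Q7-T, against -0.02 and -0.029 after TMM scaling, and in the treatment comparisons it was -0.162 (STHdhQ7) and -0.101 (STHdhQ111). In TPM, 6 of the 8 genes were higher without overlap in Q111-C (38.8% of all genes) and 5 in Q111-T vs. Q7-T (33.9% of all genes).

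**Figure D3:**
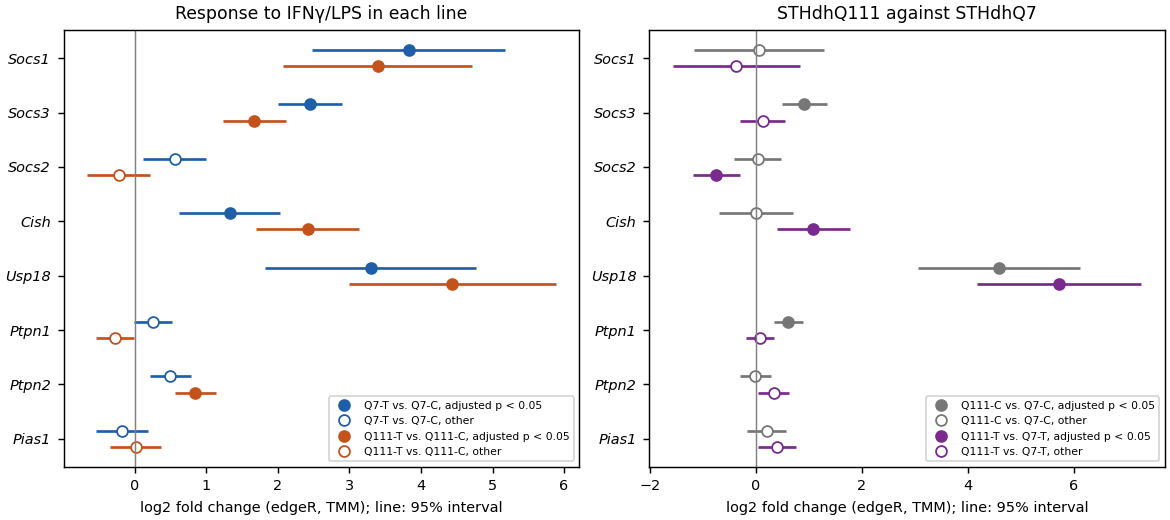
Log2 fold changes of the 8 genes from edgeR with 95% intervals, for treatment in each line (left) and for STHdhQ111 against STHdhQ7 cells before and after treatment (right). Filled points passed an adjusted p under 0.05. Socs1, Socs3, Cish and Usp18 lie to the right of 0 in both lines, and Usp18 separates the lines by 4.58 and 5.72.

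Whether the lines responded differently was tested as a line-by-treatment interaction. With all 12 libraries, 0 of the 8 genes passed edgeR's test (5.7% of all genes did, with 3.94% higher and 1.75% lower), while 4 had an unadjusted p under 0.05 (19.8% of all genes). The difference, given as STHdhQ111 minus STHdhQ7, was -0.78 for Socs3 (SE 0.274, adjusted p = 0.134), -0.78 for Socs2 (SE 0.284, adjusted p = 0.15) and -0.53 for Ptpn1 (SE 0.172, adjusted p = 0.102). It was 1.09 for Cish (SE 0.447, adjusted p = 0.201), all from edgeR. The Q111-T libraries of Cish alone secured its passing of the filter, which favoured a positive difference. Without Cish, 0 of 7 genes passed edgeR's test with all 12 libraries. DESeq2 called Socs2, Socs3 and Ptpn1 lower (4.94% of all genes), and limma on log2(TPM + 0.5) called Usp18 higher (4.15% of all genes). Without Q7-T replicate 2, edgeR called Socs3 (adjusted p = 0.0448). Without Q7-C replicate 1 and Q7-T replicate 2, an alternative chosen after seeing the data, edgeR called 4 of the 8 genes, while its calls over all genes went from 5.7% to 17.1%. These were Socs3 at -1.04 (adjusted p = 0.00884), Socs2 at -0.93 (adjusted p = 0.0327), Cish at 1.22 (adjusted p = 0.0475) and Usp18 at 1.68 (adjusted p = 0.029). The filter favoured the call of Cish here too, and without it Socs3, Socs2 and Usp18 were called. For Socs1 the difference was -0.43 with a 95% interval from -2.15 to 1.29 with all libraries, so that a difference of more than 2-fold in either direction was within the error. Its sign turned without Q7-T replicate 2 (0.36, adjusted p = 0.811, edgeR), as did that of Socs1 in Q111-T vs. Q7-T (-0.37 with all libraries and 0.45 without that replicate, neither of which passed).

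The order of the levels also changed with treatment, as read from TPM within each group. In Q7-C, Ptpn2 and Ptpn1 stood highest, at 21.3 ± 2.92 and 21.1 ± 4.21 TPM (SD, n = 3 each), and their libraries overlapped. Pias1 followed at 11.9 ± 3.76 TPM and overlapped with Socs3 at 7.95 ± 1.22 TPM (SD, n = 3 each). In Q7-T, Socs3 ranked first at 40.6 ± 15.6 TPM, and each of Socs3, Ptpn2 and Socs1 overlapped with the next in that order, while Ptpn1, which ranked after Socs1, did not overlap with Pias1. In Q111-C, Ptpn1 ranked first at 39.8 ± 2.77 TPM, and no gene overlapped with the next in the order Ptpn1, Ptpn2, Socs3, Pias1, Usp18, Socs1, Socs2 and Cish. In Q111-T, Usp18 ranked first at 184 ± 16.8 TPM, followed by Socs3 at 56.3 ± 6.89 and Ptpn2 at 43.9 ± 0.988 TPM (SD, n = 3 each), without overlap. Usp18 was thus the highest of the 8 genes in treated STHdhQ111 cells and the sixth in treated STHdhQ7 cells.

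For the other genes that passed in a treatment comparison, the 3 genes with the nearest pattern over the 12 libraries were found in the same way. Socs1 was most like Ifitm3 (r = 0.988), Urah (r = 0.981) and Dcxr (r = 0.974). Like Socs1, these genes were highest of Q7-C in replicate 1 and of Q7-T in replicate 2, the libraries named above as outlying. Ifitm3 had 2877 TPM in Q7-T replicate 2 against 1330 and 1397 in the others. Urah passed the filter only through treated libraries. Socs3 was most like Tlr2, a receptor of bacterial lipoproteins, Irf1, an IFNγ-induced transcription factor, and Casp12, with r from 0.981 to 0.983. Cish was most like Noct (r = 0.989), Tbkbp1 (r = 0.987), which passed the filter only through Q111-T libraries, and Slc25a25 (r = 0.982). Ptpn2 was most like Hpse (r = 0.987), Parp11 (r = 0.984) and Etv6 (r = 0.983). Among the 8 genes themselves, Cish and Ptpn2 (r = 0.95) and Usp18 and Ptpn2 (r = 0.94) were most alike, and Socs1 and Pias1 were least alike (r = -0.3).

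Of 12 further genes examined, 11 were tested. They were brakes of the pathway apart from Isg15, the substrate of USP18. In Q7-T vs. Q7-C, 1 rose (3.61% of all genes), which was Isg15, and the 10 others did not pass. In Q111-T vs. Q111-C, 3 rose (11.3% of all genes) and 8 did not pass. Isg15 was joined by Sh2b3, which encodes the JAK2 inhibitor LNK (log2 fold change 0.92, adjusted p = 7.06e-04, edgeR), and Pias3, an inhibitor of STAT3 (0.83, adjusted p = 0.0126, edgeR). The interaction, which passed for 5.7% of all genes, did so for both Sh2b3 (1.19, adjusted p = 0.00519, edgeR) and Pias3 (1.23, adjusted p = 0.0264, edgeR). The SOCS paralogs Socs4, Socs5, Socs6 and Socs7 had log2 fold changes between -0.53 and 0.39 in both lines and did not pass, nor did Pias2 and Pias4. The median of the 11 genes was -0.136 in the first line and 0.089 in the second. Of the subunits of the ubiquitin ligase that SOCS proteins recruit (Cul5, Rnf7, Elob and Eloc), 0 of 4 passed in either line with edgeR, and 0 had an unadjusted p under 0.05.

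Upstream and downstream genes were counted in the same way. Of 12 cytokine receptor genes, 4 rose in each line and 0 fell. Of all genes, 3.61% rose and 1.74% fell in STHdhQ7 cells, and 11.3% and 7.33% in STHdhQ111 cells. These shares also stand beside the JAK and STAT counts that follow. Ifnar2, the receptor subunit to which USP18 binds, rose by a log2 fold change of 1.01 in STHdhQ7 cells (adjusted p = 0.00214, edgeR) and 1.46 in STHdhQ111 cells (adjusted p = 6.20e-05, edgeR). Ifngr1 had -0.09 and 0.03, and Ifngr2 0.19 and 0.37, and neither passed. Osmr, the oncostatin M receptor subunit, rose in both lines, by 1.88 and 1.28. Il13ra1 (2.77) and Il4ra (0.91) were the other receptor genes that rose in STHdhQ7 cells, and Ghr (1.16) and Lifr (0.68) those in STHdhQ111 cells. Of the 4 JAK genes, 0 passed in STHdhQ7 cells and 1, Jak2, rose in STHdhQ111 cells (1.08, adjusted p = 0.0252, edgeR). Of 6 STAT pathway factors tested, 3 rose in STHdhQ7 cells (Stat2 by 3.65, Stat3 by 1.40 and Irf9 by 2.70) and 2 in STHdhQ111 cells (Stat2 by 2.94 and Irf9 by 2.02).

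**Figure D4:**
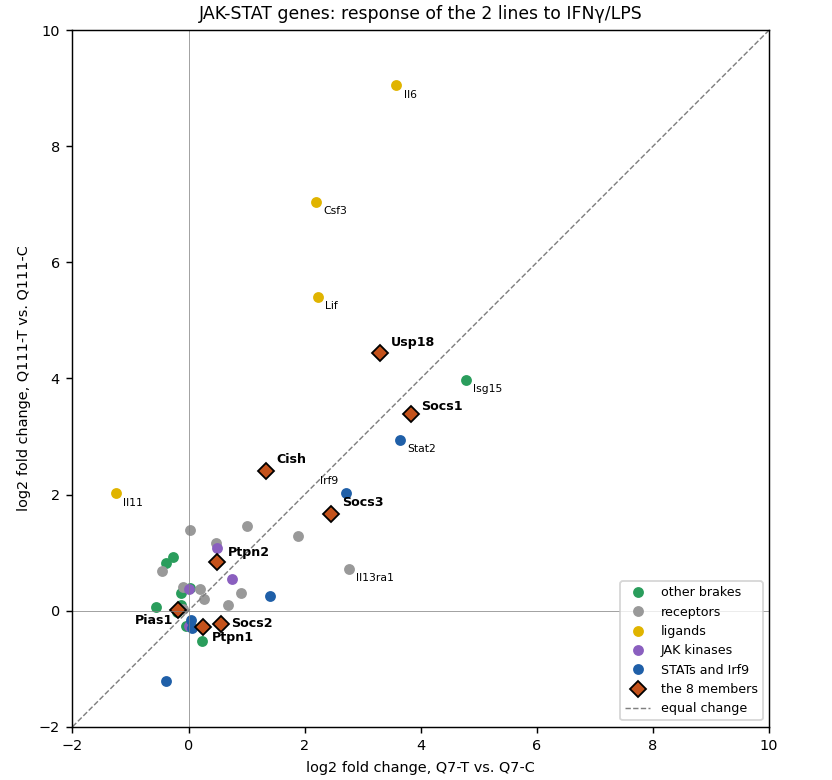
Log2 fold change (edgeR) with treatment in STHdhQ7 cells (horizontal) and STHdhQ111 cells (vertical) for the 8 genes (diamonds) and for other brakes, receptors, ligands, JAK kinases and STAT factors (circles), with a dashed line of equal change. Isg15, the substrate of USP18, is drawn with the other brakes. Ifnb1, which had no counts in nontreated cells, is left out. The ligands Il6, Csf3 and Lif lie far above the line, Usp18 and Cish lie above it, and Socs3, Socs1, Stat2 and Isg15 lie below it.

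Genes for cytokine ligands were counted as well. Of 6 tested, 2 rose in STHdhQ7 cells (3.61% of all genes) and 5 rose in STHdhQ111 cells (11.3% of all genes). The interaction passed for 4 (5.7% of all genes). Csf3 and Ifnb1 passed the filter only through treated libraries, which favoured their calls. Of the other 4 ligand genes, 1 rose in STHdhQ7 cells (Lif), 3 rose in STHdhQ111 cells (Il6, Lif and Il11), and the interaction passed for these 3. Il6 had a mean of 1.17 TPM without and 12.7 TPM with treatment in STHdhQ7 cells, and 1.24 and 618 TPM in STHdhQ111 cells, and the interaction was 5.48 (adjusted p = 0.031, edgeR). Lif, a gp130 cytokine, had 0.982, 4.23, 3.26 and 130 TPM in the same order, with a difference of 3.18 (adjusted p = 2.63e-04, edgeR). Il11, another gp130 cytokine, rose by a log2 fold change of 2.02 in STHdhQ111 cells (adjusted p = 0.0274, edgeR) and had -1.26 in STHdhQ7 cells (adjusted p = 0.313, edgeR). Csf3, which encodes the granulocyte colony-stimulating factor, averaged 0.244, 0.948, 0.262 and 34.0 TPM in the order of groups given for Lif. Ifnb1, the type I interferon gene, had 3.80, 3.39 and 2.65 TPM in the Q111-T libraries and 0.461 TPM in Q7-T replicate 1, and was at 0 in the other 8 libraries. Socs3, whose product acts on the receptors of IL-6 and LIF, was at 40.6 ± 15.6 TPM in Q7-T and 56.3 ± 6.89 TPM in Q111-T (SD, n = 3 each). Of 8 STAT3 target genes, 3 rose in STHdhQ7 cells (3.61% of all genes), and 5 did so in STHdhQ111 cells (11.3% of all genes). The largest of these increases was that of Lcn2, which encodes the iron-carrier binding protein lipocalin 2, with log2 fold changes of 7.37 (adjusted p = 5.18e-07, edgeR) and 7.83 (adjusted p = 3.15e-07, edgeR). Cebpd rose by 4.41 and 2.51 and Bcl3 by 2.83 and 0.85, whereas Fos (3.54) and Junb (2.76) rose in STHdhQ111 cells and did not pass in STHdhQ7 cells (-0.37 and 0.76). The difference between the lines was -1.98 for Bcl3, -1.90 for Cebpd, 3.91 for Fos and 2.00 for Junb. These 4 passed edgeR's test of the interaction (5.7% of all genes). Of 5 STAT5 target genes tested, 0 passed edgeR's test in STHdhQ7 cells, where 2 were higher (8.62% of all genes) and 2 lower (6.83%) at an unadjusted p under 0.05. In STHdhQ111 cells Pim1 (1.58) and Bcl2l1 (0.67) rose (11.3% of all genes) and Ccnd1 (-0.64) fell (7.33% of all genes).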

How the data were processed

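RNA-seq of 12 libraries was used, 3 for each of 4 groups taken from the labels. According to the methods, the authors trimmed reads with Cutadapt, mapped them with HISAT2 to GRCm38 and used StringTie and Ballgown to estimate expression. Their versions and the strand setting are not given in the sources used here. The deposited table holds an estimated count and a TPM value per gene and library. The deposited estimated counts, already whole numbers, tended to be multiples of 4, so they were also tested divided by 4, and the floor for a count of 0 was 12 (3 read pairs). It covers counting error only. TPM values were used for levels, the filter of at least 0.5 TPM in 3 libraries, and correlations of log2(TPM + 0.5).

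Counts were tested with edgeR 4.0.16 (quasi-likelihood, TMM) in R 4.3.3, in 1 fit of 12 libraries with group means, and p-values were adjusted by Benjamini-Hochberg over 16127 genes. The comparisons were the 4 pairs of groups named in the text and their interaction. The alternatives were no filter, a filter of 1 TPM, median-of-ratios size factors, DESeq2 1.42.0, limma 3.58.1 on log2(TPM + 0.5, 0.1 or 1), only the libraries compared, a replicate block and each library left out. Tested on simulated data, with 200 of 16127 genes changed by 2 on the log2 scale, the fit for Q111-T vs. Q111-C called 202 genes, of which 194 were changed. Tables were handled with pandas 2.3.3 and plots made with matplotlib 3.10.9 in Python 3.11.15.

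The 8 genes and all gene lists were chosen with earlier results of these data known. Named genes were the 8 genes, genes of the lists with an adjusted p under 0.05 and a change of at least 2-fold in a treatment comparison, the SOCS and PIAS paralogs, and the 3 genes most like each of the 8 that passed. Cell type markers are given by levels or sums only. Irf9 and Isg15 levels, the neighbours of Usp18, and other list genes under 2-fold or without a treatment call (Ifngr1, Ifngr2, Il4ra, Lifr, Sh2b3, Bcl2l1, Ccnd1) were chosen after their values were seen. Marker genes with no row in the table were not analysed here. Some genes of the pathway are not reported here.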

Additional observations from a re-analysis of the deposited data

How the results depend on the processing

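Of the 40 results (8 genes in 5 comparisons), 15 passed edgeR's test, 11 of them stayed past the threshold with the same direction under every alternative run, and 0 of the 15 reversed. The other 4 were Cish and Usp18 in Q7-T vs. Q7-C and Socs2 and Cish in Q111-T vs. Q7-T. Replicate numbers did not pair the samples (correlation of same-numbered deviations -0.610 to 0.441). Under the replicate block, Cish in Q7-T vs. Q7-C had 1.327 and an adjusted p of 0.086, and no other call of the 40 was lost. In Q7-T vs. Q7-C, where 4 genes rose in the reported test, 6 rose with DESeq2, 5 without both outlying STHdhQ7 libraries, 3 without a filter, with limma at each pseudocount and under the replicate block, 2 in the test of only the libraries compared, and 3 to 4 when 1 library was left out. Over all genes, the calls of a rise there went from 582 in the reported test to 891 with DESeq2. They were 752 without both outlying libraries, 500 without a filter and 317 with only the libraries compared. With limma they were 407, 406 and 400 at pseudocounts of 0.5, 0.1 and 1. The replicate block gave 487, and leaving out 1 library 432 to 663. With DESeq2, 1 gene fell in Q111-T vs. Q111-C (0 in the reported test), beside 10.4% of all genes. In Q111-T vs. Q7-T, 4 genes were higher with DESeq2, 4 without both outlying libraries and 3 with limma at each pseudocount (2 in the reported test), with 1 to 3 when 1 library was left out, and 0 were lower with limma at any pseudocount or with only the libraries compared (1 in the reported test). Over all genes, 3189 were higher there in the reported test, 3665 with DESeq2 and 4223 without both outlying libraries. With 1 library left out, 2567 to 3459 were higher. Limma at 0.5 called 5859 genes, 4303 of them higher, and the test of only the libraries compared called 4169, 2287 of them higher. In the interaction (0 in the reported test), 1 was higher with limma at 0.5 and 1 at a pseudocount of 1. Without both outlying libraries 2 were higher, of which the filter favoured Cish. In the same test 3 were lower with DESeq2 and 2 without both outlying libraries, and leaving out 1 library gave 0 to 1 in either direction. Over all genes the interaction test called 919, 636 of them higher, and with DESeq2 1980, 1183 of them higher. It called 950 with limma at 0.5, 1058 at 1 and 2758 without both outlying libraries, with 669, 745 and 1728 of these higher. With 1 library left out it called 534 to 1457. The cause was not tested.

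Signs turned for 7 results, none of which passed the test either way. Pias1 in Q111-T vs. Q111-C (0.011) was -0.006 without a filter, -0.01 at 1 TPM, and -0.089, -0.091 and -0.086 with limma at 0.5, 0.1 and 1, and ranged from -0.04 to 0.011 when 1 library was left out. In Q111-C vs. Q7-C, leaving out 1 library moved Socs1 (0.061) from -0.179 to 0.749 and Socs2 (0.031) from -0.006 to 0.109. Cish there (-0.006) was 0.026 at 1 TPM, 0.009 with median-of-ratios size factors, 0.101, 0.248 and 0.058 with limma, 0.003 with only the libraries compared, 0 under the replicate block, and -0.24 to 0.324 with 1 library left out. Ptpn2 there (-0.012) was 0.02, 0.002, 0.003 with DESeq2, 0.304, 0.31 and 0.298 with limma in the same order, 0.023 without both outlying libraries, and -0.022 to 0.052 with 1 left out. Socs1 in Q111-T vs. Q7-T (-0.369) was 0.215, 0.219 and 0.209 with limma, 0.473 without both outlying libraries, and -0.73 to 0.445 with 1 left out, and its interaction (-0.431) ranged from -1.118 to 0.364. Where an arm kept 2 libraries, the spread was shared with the other groups. The values of Cish and Usp18 in Q7-C rested on few counts, as single libraries had 30 and 0.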
